A study of Mus musculus and Acomys cahirinus with 16 samples.

Results

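Hair keratins and keratin-associated proteins are the structural genes of the hair shaft and its sheath. They were taken by name as every gene whose symbol begins with Krtap together with Krt25 to Krt28, Krt31 to Krt36, Krt39, Krt40, Krt71 to Krt75 and Krt81 to Krt87, leaving out names that contain -ps. The rule found 138 of the 56980 genes of the mouse table, 25 of them keratins and 113 keratin-associated proteins. In the spiny mouse table it found 69 of 19818 genes, 22 of them keratins and 47 keratin-associated proteins. The tables shared 68 of these names. Of the mouse members, 135 were annotated as protein coding and 3 as pseudogenes (Krt74, Krtap12-24 and Krtap19-9a), which the naming rule kept.

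Polyadenylated RNA was sequenced from skin of 2 rodents, mouse (Mus musculus) and spiny mouse (Acomys cahirinus). Each species had 4 untreated samples and another 4 given DMBA/TPA. DMBA (dimethylbenzanthracene) is a DNA-damaging carcinogen and TPA is a phorbol ester that drives growth of the epidermis, and the pair is the classical chemical protocol for skin tumours in mice. Strain, sex, age, body site, doses, treatment time and whether a treated sample held a tumour are not given in the sources used here. The labels do not say that samples of a group came from separate animals, so p-values measure the spread between these samples.

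Hair is built by keratinocytes at the base of the follicle during its growth phase (anagen). Type I keratins (here Krt25 to Krt40) pair with type II keratins (Krt71 to Krt87) to form the filaments. Some keratins belong to the inner root sheath, which moulds the growing shaft, and others to the companion layer, the matrix, the cortex or the cuticle. Keratin-associated proteins form the material between the filaments and are cross-linked to them through cysteine. They are divided into high-sulfur, ultrahigh-sulfur and high-glycine-tyrosine classes. In bulk tissue, fewer hair-forming cells and less RNA per cell cannot be told apart.

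In mouse the members lay at 6 loci of the GRCm39 genome. On chromosome 11 (99206342 to 99996452) there were 51 members, among them the 13 type I keratins, and on chromosome 15 (101328919 to 101710781) the 12 type II keratins. The other keratin-associated proteins were on chromosome 16 (37 members, 88407593 to 89368071), chromosome 10 (24 members, 77525791 to 77698716), chromosome 7 (12 members, 141673807 to 141858331) and chromosome 1 (2 members, 83019245 to 83039642). In the AcoCah2 assembly of spiny mouse, scaffold 9 held 31 members, scaffold 4 held 21, scaffold 6 held 9, and scaffolds 17, 7 and 2 held 4, 3 and 1.

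Classes were assigned from the codons of the mouse coding sequences. Genes with at least 35% glycine plus tyrosine codons were called high-glycine-tyrosine (26 genes), whatever their cysteine. Of the rest, those with at least 30% cysteine codons were called ultrahigh-sulfur (47 genes). The remaining 38 were called high-sulfur with no lower limit on cysteine, and 2 were unclassified. Spiny mouse members took the class of the mouse gene of the same symbol, and Krtap15 that of its family. Krtap7-1 and Krtap15-1, classed as high-sulfur, had only 9.2% and 4% cysteine codons. Krtap28-10 and Krtap28-13, classed as high-glycine-tyrosine, had 42.86% and 42.75%. A stretch of 30 codons from the mouse member that was highest per kilobase in each of the extreme classes shows what the classes encode. Capitals mark cysteine codons in Krtap4-1 (ultrahigh-sulfur, codons 99 to 128, GRCm39 chr11:99518625-99518714, minus strand) and glycine and tyrosine codons in Krtap8-1 (high-glycine-tyrosine, codons 17 to 46, chr16:89284658-89284747, minus strand).
Krtap4-1: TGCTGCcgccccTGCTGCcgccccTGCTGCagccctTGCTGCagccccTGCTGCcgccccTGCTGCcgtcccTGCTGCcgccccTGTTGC
Krtap8-1: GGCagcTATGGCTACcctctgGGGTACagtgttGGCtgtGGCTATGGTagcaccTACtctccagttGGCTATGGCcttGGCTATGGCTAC
In Krtap4-1, 16 of the 30 codons were for cysteine. In Krtap8-1, 18 of the 30 were for glycine or tyrosine.

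Promoters are shown as a description, and their part in the members' levels was not tested. RefSeq promoters on the GRCm38.p6 build, 250 bases before to 50 bases after the start, were given for 67 of the 138 mouse members and for Krtap15, 68 in all. The TATA box letters TATAAA were present on either strand in 55 of the 68 (80.9%), against 13.6% of 32851 promoters. On the gene's own strand and starting 40 to 20 bases before the start they were present in 40 of the 68 (58.8%), against 1.99% of all promoters. The letters CTTTGAA, a core of the LEF1 motif, were present on either strand in 15 of the 68 (22.1%) and in 5.14% of all promoters. By class, CTTTGAA was in 6 of 17 keratin, 6 of 18 high-sulfur, 0 of 14 ultrahigh-sulfur and 2 of 18 high-glycine-tyrosine promoters, and TATAAA in 13, 15, 14 and 13 of them.

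The 100 bases before the start are shown for 4 members described below that were abundant in their class and for Krt75, whose level set it apart in untreated mouse skin. Capitals mark TATAAA on either strand, which in 1 place of Krtap1-5 overlap.
Krt71 (chr15:101743098-101743197, minus strand): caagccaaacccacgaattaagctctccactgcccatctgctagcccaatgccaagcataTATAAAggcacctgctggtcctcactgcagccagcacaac
Krtap1-5 (chr11:99581017-99581116, minus strand): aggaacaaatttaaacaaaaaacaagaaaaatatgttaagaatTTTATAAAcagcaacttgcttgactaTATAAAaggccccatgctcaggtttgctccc
Krtap4-1 (chr11:99628240-99628339, minus strand): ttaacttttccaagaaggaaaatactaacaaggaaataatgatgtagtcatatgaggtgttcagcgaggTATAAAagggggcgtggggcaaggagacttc
Krtap8-1 (chr16:89487953-89488052, minus strand): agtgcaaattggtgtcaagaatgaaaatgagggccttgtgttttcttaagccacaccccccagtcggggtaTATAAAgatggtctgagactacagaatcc
Krt75 (chr15:101573905-101574004, minus strand): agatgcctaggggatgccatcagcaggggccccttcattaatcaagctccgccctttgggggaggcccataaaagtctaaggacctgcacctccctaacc
The motif nearest the start began 40 bases before it in Krt71, 31 in Krtap1-5 and Krtap4-1 and 29 in Krtap8-1. These letters were not in this window of Krt75.

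Library totals ran from 19608787 to 30561256 counts. Levels are in CPM, the count scaled to library size with TMM factors, and 3 counts corresponded to 0.102 to 0.158 CPM, which covers counting error only. Untreated mouse replicate 2 stood apart from its group across the whole library, and its column alone carried a suffix whose meaning is not stated. Over the 19958 to 21748 genes of each pair that met a minimum of 20 counts, chi-square per gene was compared between untreated mouse samples. It was 133 to 166 in pairs with replicate 2 and 21.9 to 25.6 in the others. Replicate 2 also had lower sums of adipocyte markers (193 against 614 to 834 CPM), sebaceous gland markers (284 against 567 to 716 CPM) and epidermal markers (5854 against 9130.2 to 12215 CPM). In untreated spiny mouse the chi-square per gene was 85.1 to 155 between replicates 1 or 2 and 3 or 4, and 22.6 to 34.6 within these pairs. Untreated mouse replicate 1 held liver markers at a summed 563 CPM, against 4.74 to 5.83 in the other untreated samples. Epidermal markers were present throughout, with a summed level of at least 5854 CPM over 5 markers in mouse and 12961 CPM over 6 in spiny mouse.

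In mouse skin, hair genes of every class were higher after DMBA/TPA. Their summed level was 107.9, 5957, 131 and 119 CPM in untreated replicates 1 to 4 and 50386, 48619.8, 46802 and 46448 CPM in treated replicates 1 to 4. The groups did not overlap, and the treated samples differed among themselves by far less, in proportion, than the untreated ones. In shares of all counts, the members took 0.0113% to 0.693% of an untreated library and 4.26% to 4.57% of a treated one. The treated mean of 48064 ± 1817 CPM (SD, n = 4) was 30.4 times the untreated mean of 1579 ± 2919 CPM (SD, n = 4). It was 8.07 times the level of untreated replicate 2, and 403 times the mean of the other 3 untreated samples.

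**Figure D1:**
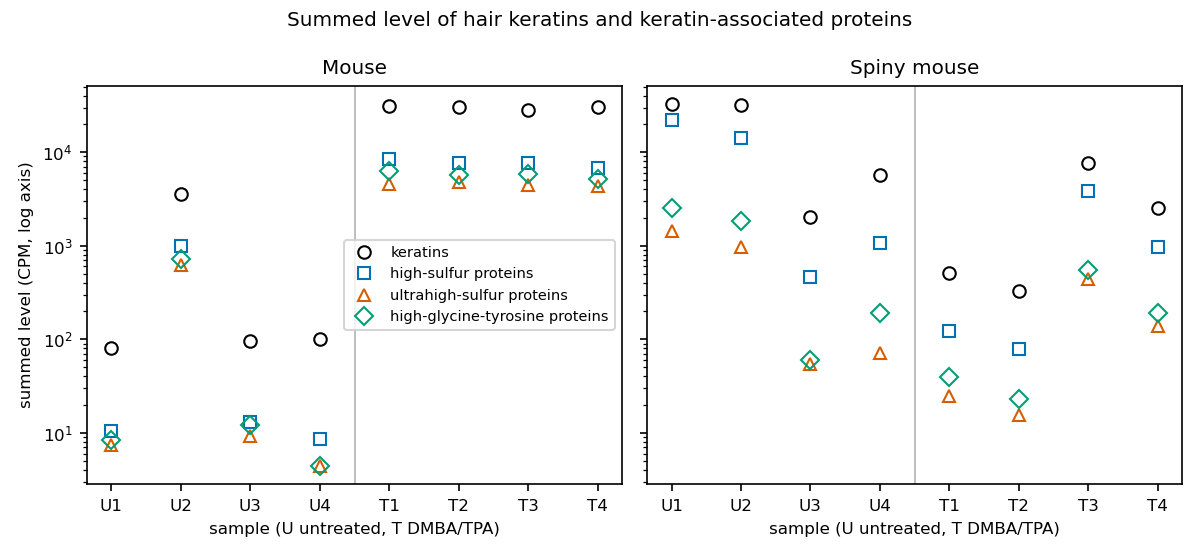
Summed level of the keratins and of each class of keratin-associated protein in every sample, in TMM-scaled CPM on a log axis, for untreated (U1 to U4) and DMBA/TPA-treated (T1 to T4) skin of both species. All 4 treated mouse samples lie above every untreated one, and untreated replicate 2 above the other untreated samples, while the groups of spiny mouse overlap.

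Of the 131 mouse members that passed the filter on low counts, 119 rose and none fell (edgeR quasi-likelihood test, adjusted p under 0.05). By the same test 128 had an unadjusted p under 0.05. In untreated replicates 1, 3 and 4, 49 of the 138 members had under 3 counts in each. Those of them that were tested passed the filter through their treated samples and could hardly come out lower. Across all 19740 genes tested, 61.2% were called, 25.9% higher and 35.3% lower, and at least as many had an unadjusted p under 0.05. Of all calls 42.4% were higher, and 28.6% with library size alone as the scaling. The tested members had a median log2 fold change of 4.64, beside -0.15 for all genes, and ranged from 2.52 to 5.86. Treated and untreated samples did not overlap in 131 of the 138 members, all with treated higher, against 26.6% of all tested genes, and 32% lay lower without overlap. Leaving out untreated replicate 2, all 132 members then tested rose, with a median of 9.65. On leaving out each sample in turn, 11062 to 13944 genes of the whole mouse table were called. Setting the 10 members without a fragment in the other untreated samples at their lower bound (3 counts over those samples) gave 9.38.

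Krt71, Krt27 and Krt25 of the inner root sheath were the hair keratins highest per kilobase in treated mouse skin. Krt71, a type II keratin, measured 0.936, 718, 9.74 and 0.501 CPM in untreated replicates 1 to 4 and 8287, 8513, 7712 and 8490.3 CPM in treated replicates 1 to 4. Its untreated values differed widely, with replicate 2 far above the others, and none reached the treated range (log2 fold change 5.50, SE 2.01, edgeR adjusted p = 0.0384). Krt27, a type I partner, measured 0.448, 248, 5.53 and 0.410 CPM in untreated and 3478, 3743, 3615 and 3934 CPM in treated samples. No member tested in mouse had a higher fold change than Krt27 (log2 fold change 5.86, SE 1.89, edgeR adjusted p = 0.0227).

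All 8 inner root sheath keratins rose. Krt25 averaged 4115 ± 119 CPM (SD, n = 4) in treated samples, and Krt26, Krt28, Krt72 and Krt73 lay between 534 and 1103 CPM in each of them. The pseudogene Krt74 was the exception in level, at 9.87 to 12 CPM in treated samples and 5.53 CPM in untreated replicate 2. It also had the lowest fold change of the mouse keratins (log2 fold change 2.88, SE 1.10, edgeR adjusted p = 0.0445). Across 15 alternative fits, Krt28 kept its call in all, Krt26, Krt27 and Krt72 lost theirs in the robust fit alone, and Krt25, Krt71, Krt73 and Krt74 lost theirs in 6, 6, 8 and 10.

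The companion layer lies between the inner and outer root sheaths, and its keratin Krt75 was present in every untreated sample. It measured 66.4, 163, 58.1 and 88.1 CPM in untreated and 784, 752, 727 and 844 CPM in treated mouse skin. Untreated replicate 2 was again the highest of its group, but by a much narrower margin than for Krt71, and the groups did not overlap. Krt75 had the lowest standard error of the mouse keratins (log2 fold change 3.05, SE 0.32, edgeR adjusted p = 7.52e-05). Per kilobase it made up 20.5 to 47.9% of the members' transcripts in untreated replicates 1, 3 and 4, 0.976% in replicate 2 and 0.552 to 0.678% in treated samples.

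Keratins of the matrix, where hair cells begin to differentiate, and of the cortex, the bulk of the shaft, had fold changes above that of Krt75 with a wider error. Krt35, expressed in the matrix and cuticle, measured 0.204, 79.6, 1.47 and 0.137 CPM in untreated and 375, 399, 436 and 422 CPM in treated samples (log2 fold change 4.33, SE 1.62, edgeR adjusted p = 0.0418). It lost its call in 9 of the 15 alternatives. Its type II partner Krt85 measured 0, 141, 1.65 and 0 CPM in untreated and 888, 824, 834 and 785 CPM in treated samples and did not pass (log2 fold change 4.54, SE 1.93, edgeR adjusted p = 0.0652). The 8 cortex keratins (Krt31, Krt33a, Krt33b, Krt34, Krt81, Krt83, Krt86 and Krt87) summed to 2.16, 1398, 3.08 and 1.78 CPM in untreated and 9606, 7927, 7504 and 7278 CPM in treated samples. None of them overlapped between the groups, their log2 fold changes were 4.28 to 4.64, and none passed the test (edgeR adjusted p from 0.0580 to 0.0872). Without untreated replicate 2, all 8 passed, as did Krt85 (edgeR adjusted p = 5.21e-08). These 8 share sequence with other members, over 17.8% to 43.1% of their 50-base windows, and fragments matching several genes were not counted.

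Cuticle keratins, which form the scales of the shaft surface, all rose. Krt32 measured 6.47, 18.4, 3.81 and 5.74 CPM in untreated and 98.1, 101, 115 and 111 CPM in treated samples (log2 fold change 3.63, SE 0.44, edgeR adjusted p = 0.000160). Like Krt75 it was present in every untreated sample. Krt39, Krt40 and Krt82 rose by 4.28, 4.21 and 4.66 on the log2 scale (SE 1.23, 1.12 and 1.34) to treated levels of 30.7 to 114 CPM. Krt36 and Krt84, known from tongue and nail, rose by 3.60 and 4.07 (log2, SE 0.89 and 0.81) to 30.3 to 82.9 CPM. These 6, Krt28 and Krt75 were the 8 of the 16 called keratins that passed in every alternative.

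**Figure D2:**
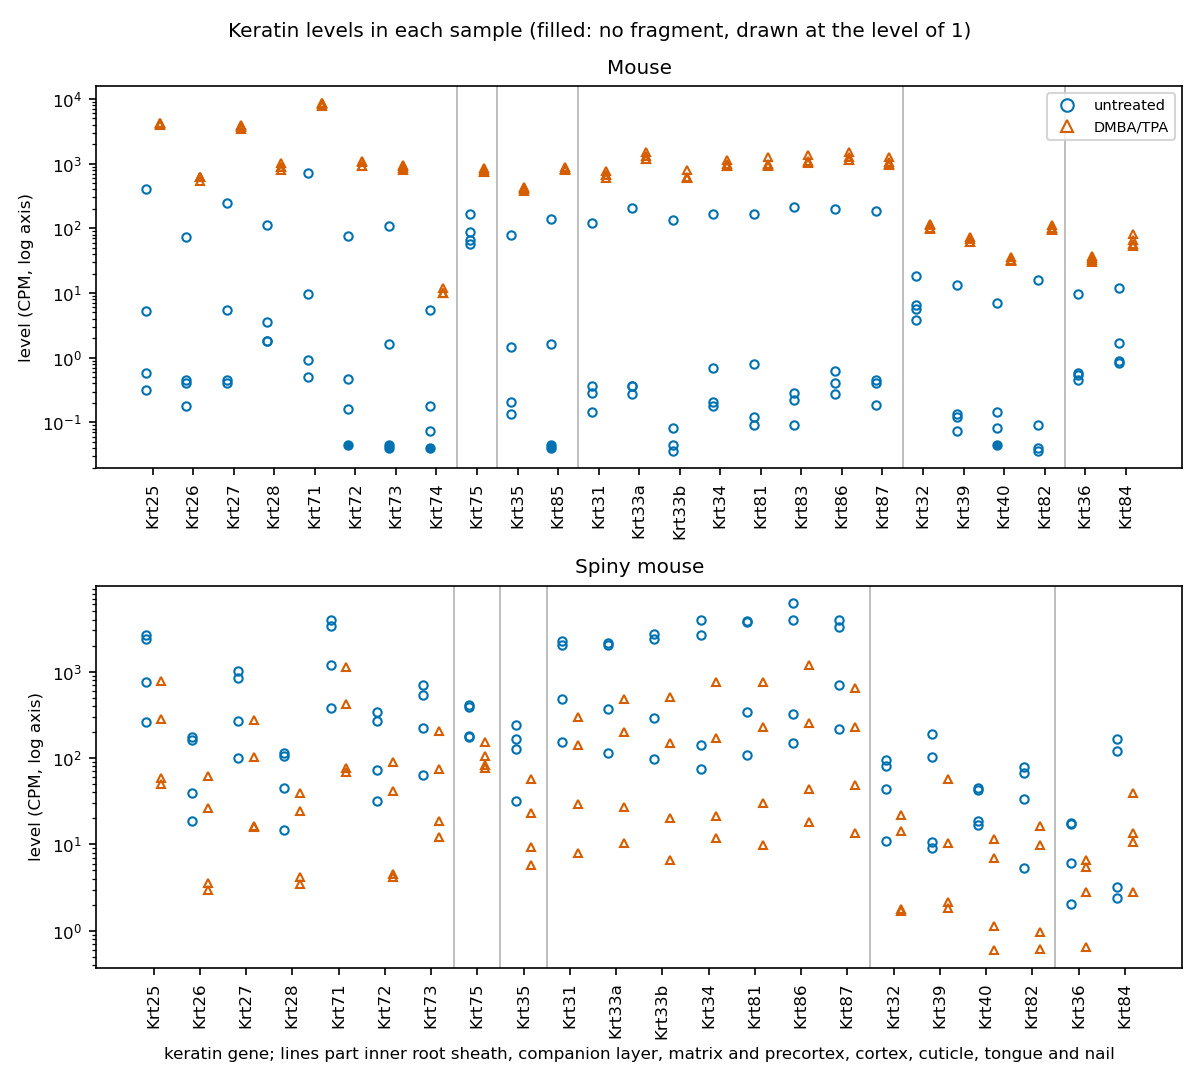
Level of each hair keratin in every sample (TMM-scaled CPM, log axis) for both species, untreated beside DMBA/TPA, grouped by the part of the follicle or organ the keratin is known from. In mouse all 25 keratins have every treated sample above every untreated one, and in spiny mouse 20 of 22 overlap between the groups.

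Among keratin-associated proteins of mouse, 103 of the 106 tested rose, beside 25.9% of all genes tested. Only 2 of the 49 members with under 3 counts in each of untreated replicates 1, 3 and 4 were keratins. The others were keratin-associated proteins, and those tested could hardly come out lower. Of the high-sulfur class 32 of 33 rose, of the ultrahigh-sulfur class 45 of 46 and of the high-glycine-tyrosine class 24 of 25, with median log2 fold changes of 4.73, 4.35 and 4.79. Both unclassified members rose as well. The 3 that did not pass were Krtap5-3, which had the lowest fold change of all mouse members (log2 fold change 2.52, SE 1.34, edgeR adjusted p = 0.128), and Krtap10-31 and Krtap10-35, named after their values were seen (edgeR adjusted p = 0.0530 and 0.0624). The 7 members that missed the filter had at most 32 counts in any sample.

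Per kilobase, Krtap8-1 was the highest keratin-associated protein of treated mouse skin, at 2564 CPM per kilobase, below Krt71 at 3774 and above Krt27 at 2382. Krtap8-1 measured 0.936, 154, 0.916 and 0.638 CPM in untreated and 1620.1, 1512, 1432 and 1325 CPM in treated samples (log2 fold change 5.23, SE 1.76, edgeR adjusted p = 0.0274). In the same class Krtap6-3, Krtap19-5 and Krtap19-9b followed at 988, 702 and 679 CPM per kilobase. Among members classed here as high-sulfur, Krtap7-1, Krtap15-1, Krtap1-5 and Krtap14 were highest, at 1931, 1049.7, 914 and 809.8 CPM per kilobase.

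Krtap1-5 measured 0.814, 113, 1.87 and 0.592 CPM in untreated and 1285, 885, 894 and 741 CPM in treated mouse samples (log2 fold change 5.04, SE 1.62, edgeR adjusted p = 0.0228). Krtap4-1, with the cysteine pairs shown above, measured 1.22, 63.2, 1.80 and 0.547 CPM in untreated and 621, 556, 538 and 494 CPM in treated samples (log2 fold change 5.05, SE 1.42, edgeR adjusted p = 0.0123). For Krtap8-1, Krtap1-5 and Krtap4-1 alike, untreated replicate 2 was the only untreated sample above 2 CPM. Krtap4-1 was the highest ultrahigh-sulfur member at 544 CPM per kilobase, followed by Krtap4-7, Krtap4-25 and Krtap1-3 at 334, 315 and 306.

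Untreated mouse replicate 2 was the highest untreated sample for 131 of the 135 members detected in that group. In the other 3 untreated samples, 49 of the 138 members had under 3 counts in each, while 131 had 3 or more counts in replicate 2. Per kilobase, cortex keratins made up 14.5% of the members' total in replicate 2, 1.66 to 1.87% in the other untreated and 9.86 to 11.8% in treated samples. Treated means stood above replicate 2 by a median of 6.32-fold, from 1.43-fold for Krtap5-3 to 46.4-fold for Krtap20-2. The median was 9.16-fold for inner root sheath keratins, 9.21-fold for high-glycine-tyrosine proteins, 5.86-fold for cortex keratins and 3.53-fold for the Krtap10 family. Summed over 7 markers, melanocyte genes were at 110.0 CPM in replicate 2, 11.8 to 17.6 CPM in the other untreated samples and 233 to 376 CPM in treated samples, and their part in the result was not tested.

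**Figure D3:**
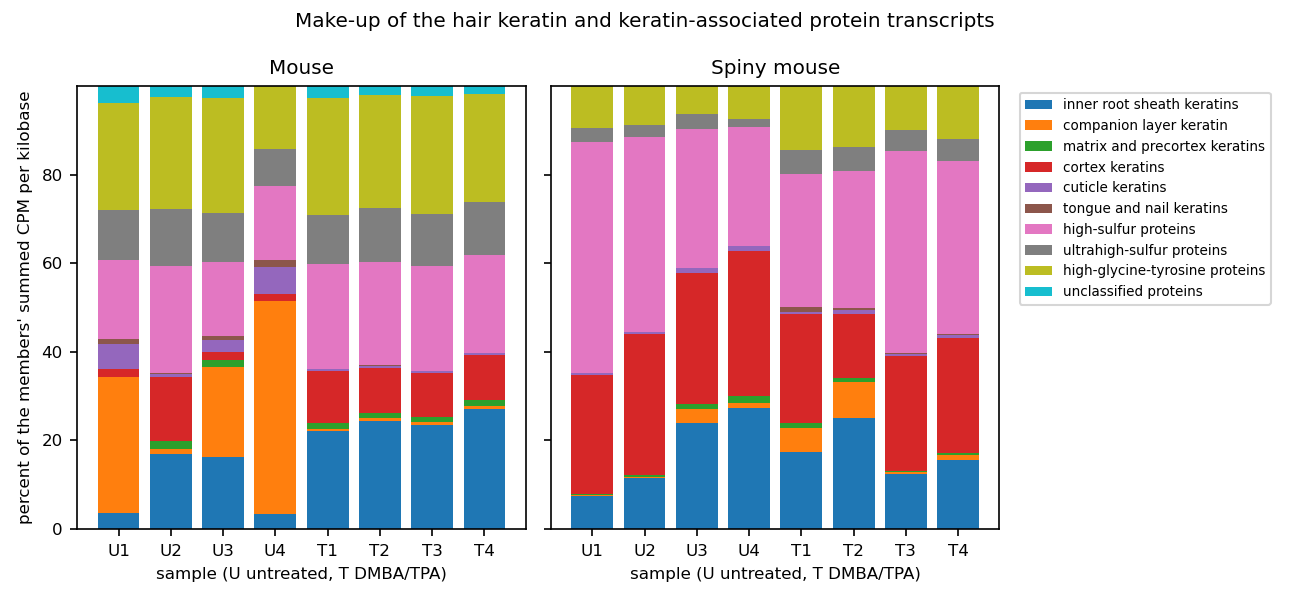
Make-up of the hair gene transcripts in each sample, as percent of the members' summed CPM per kilobase, by follicle part for keratins and by class for keratin-associated proteins. Krt75, the companion layer keratin, takes a large share in mouse untreated replicates 1, 3 and 4 and a small one in replicate 2 and in all treated mouse samples.

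In spiny mouse skin the same genes were lower on average after DMBA/TPA, with much spread inside both groups. Their summed level was 58741, 48767, 2610.2 and 7021 CPM in untreated replicates 1 to 4 and 697, 445, 12458 and 3833 CPM in treated replicates 1 to 4. Treated replicate 3 lay above untreated replicates 3 and 4, and treated replicate 4 above untreated replicate 3, so the groups overlapped. The treated mean was 4358 ± 5615 CPM and the untreated mean 29285 ± 28603 CPM (SD, n = 4 each), a ratio of 0.149. Of the 69 members, 65 had 3 or more counts in all 8 samples, and Krtap5-1 and Krtap19-2 had 0 in all.

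Of the 66 members tested in spiny mouse, 9 fell and none rose (edgeR quasi-likelihood test, adjusted p under 0.05). Across all 14833 genes tested, 55.1% were called, 28.2% higher and 26.9% lower, and at least as many had an unadjusted p under 0.05. All 66 members had negative log2 fold changes, with a median of -2.39 beside -0.01 for all genes, and 19 had an unadjusted p under 0.05. Groups did not overlap in 2 of the 69 members, Krt75 and Krt40, both lower in treated samples. Of all tested genes, 24.1% lay lower and 26.7% higher without overlap. The count of 9 depended on single samples. It was 45 without treated replicate 3 and 23 without untreated replicate 3, 3 and 2 without untreated replicates 1 and 2, and 3, 4 and 3 without treated replicates 1, 2 and 4. DESeq2 called 17.

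Krt75 had the lowest standard error of the spiny mouse keratins too. It measured 416, 388, 175 and 179 CPM in untreated and 82.1, 75.7, 153 and 106 CPM in treated samples. Every treated sample lay below every untreated one, and Krt75 fell (log2 fold change -1.47, SE 0.34, edgeR adjusted p = 0.00537). It passed the test in each of the 15 alternatives run, which no other spiny mouse keratin did.

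The cuticle keratin Krt40 measured 45.4, 42.7, 16.7 and 18.6 CPM in untreated and 0.591, 1.14, 11.7 and 6.90 CPM in treated samples (log2 fold change -2.60, SE 0.77, edgeR adjusted p = 0.0173). The groups did not overlap, and its call was lost only with a replicate block (edgeR adjusted p = 0.0630). Krt32 and Krt82, also of the cuticle, fell by 2.55 and 2.74 on the log2 scale (SE 0.89 and 1.02, edgeR adjusted p = 0.0350 and 0.0447), and each lost its call in 8 of 15 alternatives. The fourth cuticle keratin, Krt39, did not pass (log2 fold change -2.12, SE 1.25, edgeR adjusted p = 0.174). The matrix keratin Krt35 measured 165, 241, 31.9 and 127 CPM in untreated and 9.28, 5.82, 57.4 and 22.9 CPM in treated samples and fell, with treated replicate 3 above untreated replicate 3 (log2 fold change -2.56, SE 0.77, edgeR adjusted p = 0.0189).

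Krt31 was the 1 cortex keratin that passed in spiny mouse. It measured 2012, 2258, 152 and 486 CPM in untreated and 29, 7.93, 302 and 142 CPM in treated samples (log2 fold change -3.35, SE 1.16, edgeR adjusted p = 0.0336), and lost its call in 6 of 15 alternatives. The other 6, Krt33a, Krt33b, Krt34, Krt81, Krt86 and Krt87, had log2 fold changes of -2.71 to -3.13 and edgeR adjusted p from 0.0536 to 0.142. Krt86, the highest keratin per kilobase in untreated skin, measured 6205, 4000.1, 149 and 325 CPM in untreated and 43.8, 18.4, 1180.2 and 254 CPM in treated samples, and treated replicate 3 exceeded untreated replicates 3 and 4.

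The 7 inner root sheath keratins did not pass the test (log2 fold changes -1.98 to -2.42, edgeR adjusted p from 0.0645 to 0.111). Krt71 measured 3389, 3994, 376 and 1199 CPM in untreated and 75.9, 69, 1134 and 417 CPM in treated samples, with treated replicates 3 and 4 above untreated replicate 3. The tongue and nail keratins Krt36 and Krt84 had log2 fold changes of -1.48 and -2.14 (SE 0.74 and 1.26) and did not pass either.

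Of 44 keratin-associated proteins tested in spiny mouse, 3 passed, all lower, while 26.9% of all genes tested were called lower. High-sulfur Krtap3-1 had the most negative fold change of all members. It measured 872, 446, 14.9 and 14.3 CPM in untreated and 3.0, 1.11, 51.5 and 24.2 CPM in treated samples (log2 fold change -4.08, SE 1.54, edgeR adjusted p = 0.0477). The high-glycine-tyrosine proteins Krtap19-1 and Krtap21-1, the latter named after its values were seen, fell by 3.19 and 2.43 on the log2 scale (SE 1.21 and 0.90, edgeR adjusted p = 0.0490 and 0.0433). None of the 13 ultrahigh-sulfur members passed edgeR's test, with a median of -2.10 and 1 at an unadjusted p under 0.05. Krtap20-2 was the least negative member, at no more than 3.61 CPM in any sample (log2 fold change -0.33, SE 1.31, edgeR adjusted p = 0.845).

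Krtap15, Krtap1-5 and Krtap7-1, all classed here as high-sulfur, led untreated spiny mouse skin at 2356, 2024 and 1822 CPM per kilobase. Krt86 at 1373 and Krtap8-1 at 1334 lay below them. Krtap1-5 measured 5483, 3432, 60.4 and 109 CPM in untreated and 14.2, 7.22, 716 and 153 CPM in treated samples (log2 fold change -3.35, SE 1.70, edgeR adjusted p = 0.122). Krtap8-1 measured 1673, 1213, 39.9 and 104 CPM in untreated and 21.2, 10.1, 335 and 107.6 CPM in treated samples (log2 fold change -2.68, SE 1.32, edgeR adjusted p = 0.113). In both, untreated replicates 1 and 2 were the highest and treated replicate 3 the next. Krtap13-1 (high-sulfur), Krtap4-1, Krtap1-3, Krtap9-1 and Krtap4-7 (ultrahigh-sulfur) and Krtap22-2 and Krtap19-4 (high-glycine-tyrosine) had log2 fold changes of -1.69 to -3.17, and none passed.

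The spread between spiny mouse samples ran through the whole family. Untreated replicate 1 or 2 was the highest untreated sample for each of the 67 members detected, in 46 and 21 members, and treated replicate 3 was the highest treated sample for all 67. Untreated replicate 4 exceeded untreated replicate 3 in 21 of 22 keratins and 37 of 47 keratin-associated proteins. Treated replicate 3 exceeded untreated replicate 4 in 12 of 22 keratins and 43 of 47 keratin-associated proteins. High-sulfur proteins made up 52.2, 43.9, 31.3 and 26.9% of the members' CPM per kilobase in untreated replicates 1 to 4 and 29.8, 31, 45.7 and 38.9% in treated replicates 1 to 4. Inner root sheath keratins made up 7.46, 11.4, 23.9 and 27.3% and 17.5, 25.1, 12.3 and 15.7%. In samples with a high summed level (untreated 1 and 2, treated 3) the high-sulfur share was high and the inner root sheath share low. The high-sulfur class had no lower limit on cysteine, so its share is not one of cysteine-rich proteins.

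The treatment effect differed between the species in all 65 members tested in both. Each had a negative difference, the log2 fold change of spiny mouse minus that of mouse (edgeR species by treatment interaction, adjusted p under 0.05). Some of these members, such as Krtap5-5, had under 3 counts in each of untreated mouse replicates 1, 3 and 4. They passed the mouse filter through their treated samples, so their mouse fold change could hardly be negative, which favours a negative difference. Of 13656 shared genes, 46.1% were called and 24.7% were called with a negative difference, which gives the sign and not which species changed more. Of all calls 46.4% were positive, and 66.2% with library size alone as the scaling. The members' median difference was -7.18, beside -0.03 for all shared genes. Leaving out 1 sample at a time, 60 to 65 members were called, and 5746 to 7711 of all shared genes.

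The 3 members with the most negative differences were classed as high-sulfur proteins, of which Krtap1-5 (26.2% cysteine codons) would be ultrahigh-sulfur with a limit of 25%. Krtap3-1 differed by -8.65, Krtap3-3 by -8.53 and Krtap1-5 by -8.39 (log2, spiny mouse minus mouse, SE 2.42, 2.30 and 2.57). Krt75, Krt36 and Krtap6-3 had the differences nearest 0, at -4.52, -5.08 and -5.41 (SE 0.50, 1.22 and 2.14). Levels were not compared across species because the tables were counted separately on different genomes.

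**Figure D4:**
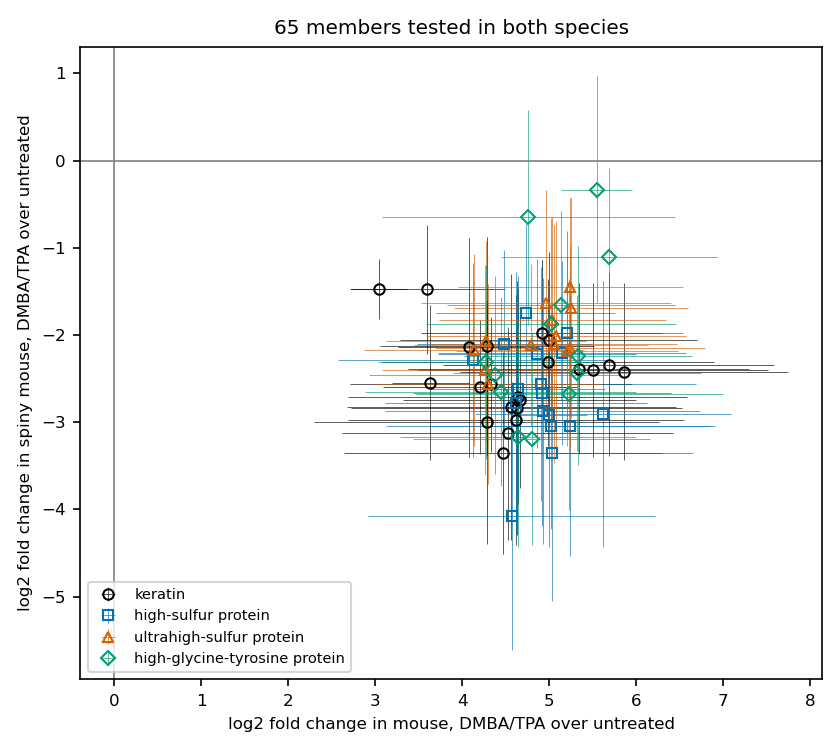
Log2 fold changes (DMBA/TPA over untreated) with standard errors of the 65 members tested in both species, mouse on the horizontal and spiny mouse on the vertical axis, by class. All points lie right of 0 for mouse and below 0 for spiny mouse.

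Genes that act with the hair proteins were taken from 3 lists. For comparison, 25.9% of all genes tested in mouse were called higher and 35.3% lower. All 9 partners that cross-link, bind or hold the shaft together rose in mouse, with a median log2 fold change of 4.46. Trichohyalin (Tchh), which is cross-linked in the inner root sheath, measured 5.66, 772, 12.2 and 6.56 CPM in untreated and 3683, 4616, 4535 and 4675 CPM in treated mouse samples, with untreated replicate 2 again the highest of its group. Padi3, a peptidylarginine deiminase that modifies trichohyalin, and the transglutaminase Tgm3 rose by 5.10 and 3.78 on the log2 scale (SE 1.76 and 0.39, edgeR adjusted p = 0.0301 and 6.25e-05). Tchh, Padi3 and Gprc5d lost their call in 7, 5 and 2 of 15 alternatives.

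In spiny mouse 2 of the 9 partners fell, Hephl1 and Mt4, by 2.20 and 2.16 on the log2 scale (SE 0.84 and 0.63, edgeR adjusted p = 0.0498 and 0.0170). They lost their call in 8 and 2 of 15 alternatives. Tchh there measured 3524, 3116, 318 and 911 CPM in untreated and 55.9, 45.2, 972 and 424 CPM in treated samples and did not pass (log2 fold change -2.39, SE 1.06, edgeR adjusted p = 0.0815). All 9 differed between the species, beside 46.1% of all shared genes.

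Of 16 transcription factors of hair differentiation, 15 rose in mouse, and in spiny mouse 11 fell, 1 rose and 4 did not pass. Among all genes tested, 25.9% were called higher in mouse, and 26.9% lower and 28.2% higher in spiny mouse. Hoxc13, a regulator of hair keratin genes, measured 7.57, 25.8, 5.53 and 4.33 CPM in untreated and 146, 144, 153 and 148 CPM in treated mouse samples (log2 fold change 3.77, SE 0.53, edgeR adjusted p = 0.000360). In spiny mouse it measured 62.2, 74.3, 10.4 and 28 CPM in untreated and 5.78, 4.32, 20.3 and 13 CPM in treated samples, with treated replicates 3 and 4 above untreated replicate 3 (log2 fold change -2.01, SE 0.65, edgeR adjusted p = 0.0251). Foxn1, the gene altered in nude mice, rose by 3.03 in mouse and fell by 1.65 in spiny mouse (log2, SE 0.36 and 0.52). Hoxc13 and Foxn1 lost the spiny mouse call in 6 and 7 of 15 alternatives.

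Lef1, a mediator of Wnt signalling in the matrix, rose by 2.21 in mouse, a call lost in 9 of 15 alternatives, and fell by 2.73 in spiny mouse (log2, SE 0.85 and 0.75). Its mouse levels were 1.71, 29.3, 2.05 and 2.32 CPM in untreated and 44.7, 41.8, 42.2 and 34.6 CPM in treated samples, so that replicate 2 lay nearer the treated samples than its own group. The homeobox factors Msx2 and Dlx3 rose by 3.74 and 3.58 in mouse and fell by 2.27 and 1.60 in spiny mouse, on the log2 scale. Their spiny mouse calls were lost in 4 and 1 of 15 alternatives, and that of Lef1 in 1. Gata3, a factor of the inner root sheath, did not pass in mouse (log2 fold change -0.15, SE 0.14, edgeR adjusted p = 0.379), and Hr, the hairless corepressor, rose in spiny mouse (log2 fold change 0.43, SE 0.12, edgeR adjusted p = 0.0118). All 16 differed between the species, beside 46.1% of all shared genes.

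Of 13 follicle signals, 8 rose, 1 fell and 4 did not pass in mouse, and 1 rose, 9 fell and 3 did not pass in spiny mouse. Among all genes tested, 61.2% were called in mouse (25.9% higher) and 55.1% in spiny mouse (26.9% lower). Shh, a signal of the growing matrix, measured 0.0407, 3.20, 0.293 and 0.228 CPM in untreated and 7.56, 8.13, 6.55 and 6.68 CPM in treated mouse samples (log2 fold change 2.95, SE 0.86, edgeR adjusted p = 0.0145). In spiny mouse it measured 7.52, 14.6, 1.60 and 6.40 CPM in untreated and 0.318, 0.179, 0.586 and 0.548 CPM in treated samples, all treated below all untreated (log2 fold change -4.20, SE 0.67, edgeR adjusted p = 0.000767). Its targets Ptch1 and Gli1 fell in spiny mouse by 0.95 and 1.68 (log2, SE 0.08 and 0.18).

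In mouse Gli1 rose by 1.07 (log2, SE 0.36), a call lost in 6 of 15 alternatives, and Ptch1 did not pass (log2 fold change 0.65, SE 0.28, edgeR adjusted p = 0.0661). Untreated replicate 2 held 29.4 CPM of Gli1, against 8.92 to 9.96 in the other untreated and 28.7 to 32.7 in treated samples. For Ptch1 it held 122.7 CPM, against 48.4 to 56.4 and 97.5 to 121.9. Fgf5, which ends the growth phase, rose by 4.03 in mouse (log2, SE 0.61) and did not pass in spiny mouse (log2 fold change -1.94, SE 0.81, edgeR adjusted p = 0.0670). Corin, a dermal papilla protease, rose by 3.26 in mouse and fell by 1.92 in spiny mouse (log2, SE 0.59 and 0.62), the latter call lost in 5 of 15 alternatives. In the species difference 11 of the 13 signals were called negative, beside 24.7% of all shared genes. Fgf7, a dermal papilla growth factor, was called positive (-0.89 in mouse and 0.23 in spiny mouse, log2) and Wnt10a did not pass.

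Markers of other cells of the skin moved beside these genes, and their part in the results was not tested. Of 7 markers of the resting follicle and bulge, 3 rose and 4 fell in mouse, and 5 fell and none rose in spiny mouse. All 7 melanocyte markers rose in mouse. None of 5 tested passed in spiny mouse, where all 7 summed to 5.96 to 40.5 CPM in untreated and 8.86 to 13.6 CPM in treated samples. All 6 skeletal muscle markers fell in both species. Their sum was 6986 to 9393 CPM in untreated and 1708 to 2187 CPM in treated mouse samples, and 9788 to 12649 and 3277 to 6745 CPM in those of spiny mouse. Epidermal markers rose in 4 of 5 cases in mouse, and in spiny mouse 3 of 6 rose and 1 fell. The 1 that fell, Lor (log2 fold change -2.39), was not found under that symbol in mouse. Of 5 adipocyte markers, 2 fell in mouse and 3 in spiny mouse, and none rose. Of 4 fibroblast markers, 2 fell in each species and 1 rose in spiny mouse. Of 5 sebaceous gland markers, 2 rose and 1 fell in mouse. In spiny mouse the 5 had log2 fold changes of -0.27 to 0.07 and edgeR adjusted p of 0.178 or more.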

How the data were processed

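The authors deposited 2 tables of raw fragment counts, 1 per species, with 4 columns per group. Per the file headers, featureCounts 2.0.3 counted read pairs with both ends mapped, on GRCm39 with Ensembl 108 for mouse and on AcoCah2 for spiny mouse, with no strand option. Under those options fragments matching several places or genes were not counted, which lowers near-identical copies, and 15 mouse members shared over 50% of their 50-base windows with another. Trim Galore and HISAT2 are named in the submitters' processing notes, and their versions are not given in the sources used here. Irradiated fibroblasts appear in the series' design text, but the labels describe skin and were followed.

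Mouse symbols came from GENCODE M39 of the same build (56236 of 56980 identifiers). Protein classes had been planned from RefSeq proteins, which were not used here, and were taken from GENCODE coding sequences. Lengths in the tables gave CPM per kilobase. Genes were kept by filterByExpr and scaled with TMM, and treated samples were set against untreated ones in edgeR 4.0.16 (R 4.3.3) by its quasi-likelihood test. Adjustment was by Benjamini-Hochberg over all genes tested, with a call at an adjusted p under 0.05. The SE is the size of the log2 fold change divided by the square root of F. The species difference is an interaction term fitted to symbols present once per table. On simulated data with 3-fold changes the test recovered 76.8% of changed genes in mouse (19303 genes). It recovered 95.5% in spiny mouse (14737 genes) and 90.6% in the interaction (13555 genes). Of the calls, 4.40%, 4.50% and 6.10% were false. Only 198, 200 and 340 genes were changed, and no simulated sample was made to stand apart from its group. In the real data 61.2% of mouse genes were called and untreated replicate 2 stood apart, so these rates need not hold there. Every pair of replicates differed by more than sampling noise (chi-square per gene 11.4 to 166 over 24 pairs).

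Members, gene lists and motifs were chosen with earlier results of these data known. Named were all keratins, the 4 members of each class highest per kilobase, the extreme fold changes, the 3 members at each end of the species difference and examples of the listed partner genes. The 15 alternatives per species were the DESeq2 1.42.0 test, its size factors, library size alone, no filter, a filter at 10 counts on average, a replicate block, a robust fit and leaving out each of 8 samples.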

Additional observations from a re-analysis of the deposited data

Results flagged for a closer look

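Dixon's test at the 95% level was run on 48 sums of levels, each over the 4 samples of a group, and 12 had 1 sample far from the other 3. For a single sum of normally spread values, chance flags about 1 in 20. The 48 sums share genes and samples, so their flags were not independent and this rate does not apply to their number. In 11 of the 12 the sample was untreated mouse replicate 2. It held 5957 CPM of all members, 3602 CPM of keratins and 2354 CPM of keratin-associated proteins. By follicle part it held 1743 CPM of inner root sheath, 221 CPM of matrix and precortex, 1398 CPM of cortex, 54.7 CPM of cuticle and 21.8 CPM of tongue and nail keratins. By class it held 999 CPM of high-sulfur, 619 CPM of ultrahigh-sulfur and 713 CPM of high-glycine-tyrosine proteins. Taken singly, 128 of the 138 mouse members had untreated replicate 2 that far above its group. The remaining sum was that of the cuticle keratins in treated mouse replicate 1, at 322 CPM.

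The response to DMBA/TPA differed between the species in 65 members by the edgeR interaction test, which called 46.1% of all shared genes. As stated above, the filter favoured a negative difference in some of these members. Spiny mouse minus mouse, the log2 fold change of Krtap3-1 differed by -8.65, that of Krtap3-3 by -8.53 and that of Krtap1-5 by -8.39. At the other end Krtap6-3 differed by -5.41, Krt36 by -5.08 and Krt75 by -4.52.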

How the results depend on the processing

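In each alternative run, all members called were higher in mouse, lower in spiny mouse and negative in the species difference (spiny mouse minus mouse). In mouse the members called ranged from 92 (robust fit) to 132 (no low-count filter, or without untreated replicate 2), and leaving out 1 sample gave 100 to 132 calls and medians of 4.24 to 9.65. In spiny mouse DESeq2 called 17 members, the robust fit 2 and the replicate block 1, and leaving out 1 sample gave 2 to 45, with medians of -3.52 to -1.79. The mouse median with a replicate block was 6.97. Same-numbered untreated and treated samples did not deviate alike from their group means (mean correlation 0.00943 in mouse and -0.355 in spiny mouse). No sample correlated best with its own number. With 4 samples per group these values cannot show whether samples were paired, which the labels do not say.

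Some single genes changed sign. Wnt10b in mouse had 0.0209 with no low-count filter, and -0.17 to 0.0038 on leaving out 1 sample. Edar in mouse had -0.29 to 0.16 on leaving out 1 sample (0.16 without untreated replicate 2), and Wnt10a in the species difference 0.0078 by library size alone. Krtap20-2 in spiny mouse had 0.20 with the replicate block and -1.97 to 2.22 on leaving out 1 sample (2.22 without untreated replicate 1, 0.06 without treated replicate 1 or 2). The cause was not tested. With ultrahigh-sulfur set at 25% cysteine codons, 18 members left the high-sulfur class, which then held 20 in place of 38. Scaling by library size alone shifted the mouse median of all genes from -0.15 to -0.38. Levels under 3 counts were not told apart from 0.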
